A study of Mus musculus with 18 samples.

Results

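Interferon-stimulated genes are genes whose transcription rises when cells sense an interferon. A list of 40 of them, named by symbol for their known response to interferon, was followed in RNA-seq of sorted mouse eosinophils. In the deposited table of 22708 genes, 39 of the 40 were found by symbol, and Mx1, whose name is blank there, was found by its Entrez ID. The study asked how AHR, the aryl hydrocarbon receptor that switches on genes when small ligands bind it, shapes eosinophils of the small intestine. The series also holds samples labelled for a knockout of its repressor AHRR. Cells sorted as CD11b+MHC-II-SiglecF+SSChi from the small intestine of C57/BL6 mice gave 18 libraries, 6 from wild type (WT), 6 from Ahr-/- and 6 labelled Ahrr-/-. Each genotype had 3 female (F1 to F3) and 3 male (M1 to M3) samples. Per the study's methods, Ahr-/- and WT mice were neither littermates nor cohoused, so housing and genotype cannot be told apart.

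Total counts per library, recovered from the deposited values, ran from 3842977 to 8149200 in WT, from 6581818 to 10284124 in Ahr-/- and from 8788867 to 12046933 in the samples labelled Ahrr-/-. Levels below are deposited values, which are variance-stabilized and lie on a log2 scale. A gene without any count has the value 5.02, and a difference between values understates the fold change of a gene with few counts.

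The targeted genes were looked at first. Ahr had deposited values of 13.40, 13.76 and 14.40 (lowest, median and highest) in WT, 14.15, 14.55 and 14.67 in Ahr-/-, and 13.03, 13.51 and 14.42 in the samples labelled Ahrr-/-. The Ahr-/- samples were thus not low in Ahr RNA. By limma they differed from WT by 0.61 (SE 0.19, adjusted p 0.0557) and from the samples labelled Ahrr-/- by 0.82 (SE 0.23, adjusted p 0.0296). The table holds 1 value per gene, which cannot show a deletion that leaves most of the transcript in place. Ahrr, a target of AHR as well as a targeted gene, had deposited values of 9.79, 10.12 and 10.39 in WT and 5.02, 5.25 and 5.79 in Ahr-/-. In the samples labelled Ahrr-/-, Ahrr had deposited values of 9.95, 10.37 and 10.93, which overlapped WT. The difference from WT was 0.28 (SE 0.18, adjusted p 0.683, limma). Ahrr RNA was thus not lower under that label, and these samples are called by their label throughout, with directions drawn from them resting on it. Tiparp, an AHR target whose product restrains interferon signalling, had deposited values of 11.79, 12.50 and 12.85 in WT and 9.42, 9.90 and 10.16 in Ahr-/-, without overlap. The difference was -2.60 (SE 0.18, adjusted p 1.56e-07), and the samples labelled Ahrr-/- overlapped WT, with 11.40, 12.10 and 13.26.

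The eosinophil label was checked on 12 marker genes, all in the table. Their summed normalized count ran from 26061 in the M3 sample labelled Ahrr-/- to 80391 in Ahr-/- F2, and Alox15 gave 31.7% of it. Siglecf, Ccr3 and Il5ra were well above the lowest value in every sample, with lowest deposited values of 9.81, 12.39 and 10.04. Of the granule genes, Prg2 had 41 to 983 counts per sample, Epx had 4 to 22 counts per sample, Ear1 1 to 23 and Ear2 0 to 32, and Ear6 was at 0 in 16 of 18 samples.

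Several libraries stood apart before any test. WT F3 and Ahr-/- F3 had 20244 and 19694 genes above 0, against 15146 to 17236 in the other 16. Epithelial markers (10 of 10 in the table, most abundant Krt19) had a summed normalized count above 15000 in 4 libraries, at 17044 in WT F1, and 19088, 22309 and 22836 in F3, M1 and M3 labelled Ahrr-/-. In the other 14 libraries this sum ran from 3389 to 11714. A choice made after seeing the data was to fit the members again without both F3 libraries (Ahr-/- against WT, and the sexes) and without the 4 libraries with many epithelial counts (comparisons with the samples labelled Ahrr-/-, and the sexes). Values of other lists are those with these libraries kept, and the interactions with sex were not fitted without either set of libraries. In a bulk sample, fewer cells of a type and less RNA per cell cannot be told apart.

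**Figure D1:**
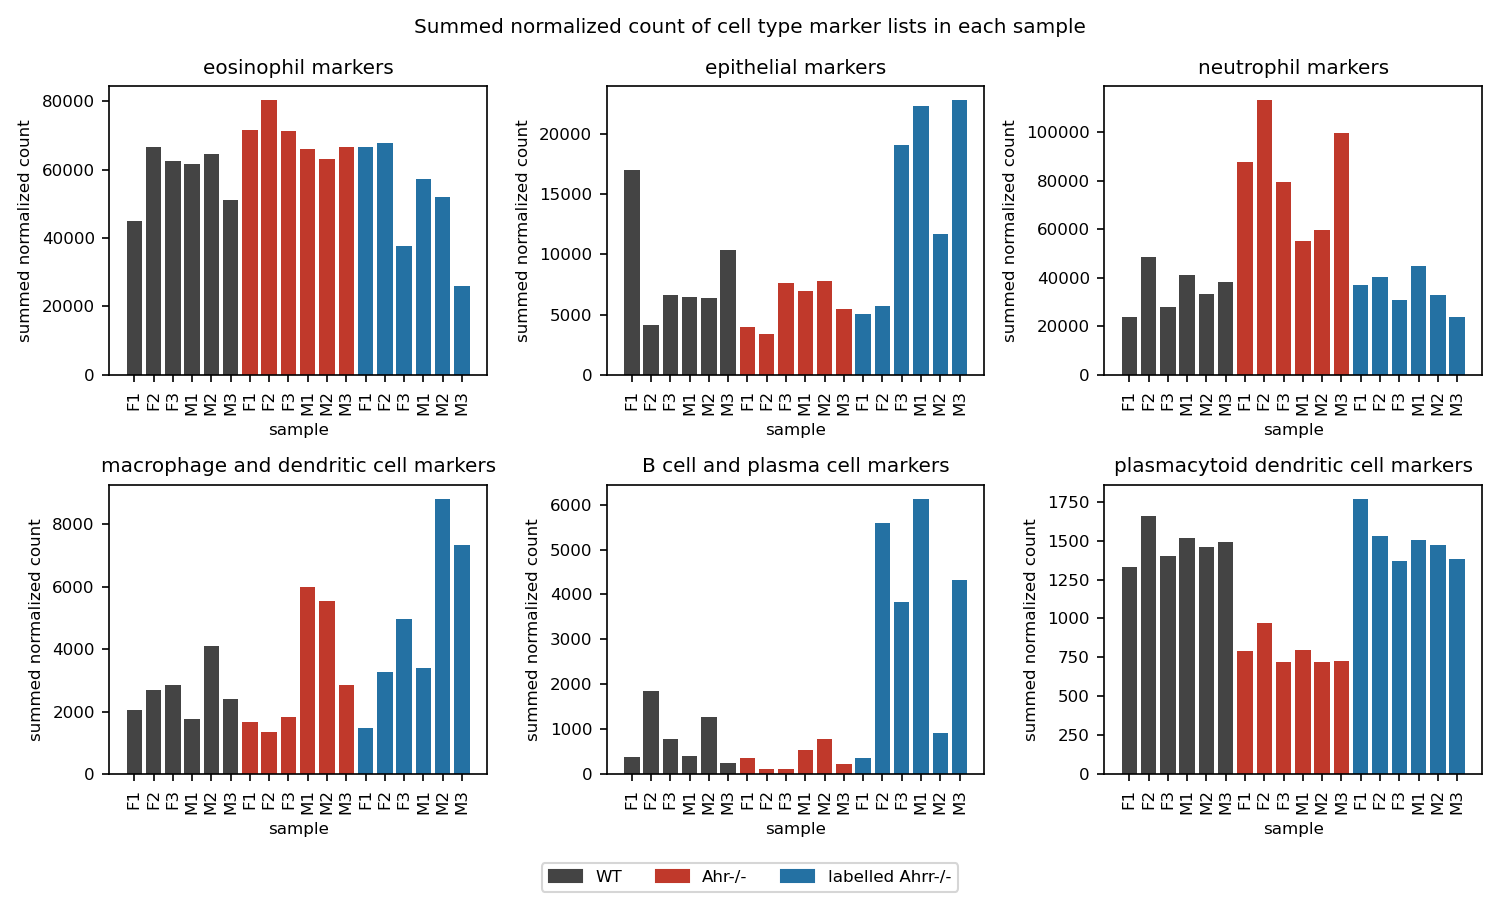
Summed normalized count (vertical axes, each from 0) of 6 marker lists in each of the 18 samples (horizontal axes), with WT in grey, Ahr-/- in red and the samples labelled Ahrr-/- in blue. Epithelial markers were above 15000 in WT F1 and in F3, M1 and M3 labelled Ahrr-/-, and the neutrophil sum, 98.1% of it Retnlg, was higher in every Ahr-/- sample than in any other.

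Type I and type III interferons act through receptors that use the kinases JAK1 and TYK2. The signal reaches a factor that holds STAT2 and IRF9 and binds interferon-stimulated response elements, while type II interferon acts through gamma-activated sequences. The induced genes encode sensors of foreign nucleic acid, antiviral effectors and regulators that feed back on the pathway, and in the intestine this program is shaped by microbes and viruses.

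Members differed widely in level within WT. Compared per kilobase of exon, the median member had 46.0 normalized counts per kilobase, against 6.37 for the median of 22543 genes with a length. Of the 40 members, 33 were above the middle gene and 7 were above 90% of genes. Ifitm3, which blocks entry of viruses into cells, led with a WT mean of 565 normalized counts per kilobase, ahead of Irf1 with 417 and Samd9l with 223. Isg15, a ubiquitin-like modifier, followed with 196 and Ddx58, which encodes the RNA sensor RIG-I, with 178. At the other end, Mx1 had 1.67 normalized counts per kilobase and Iigp1 1.74. Without length, the highest mean normalized counts in WT were those of Irf1 (1656), Ifih1 (1306) and Ddx58 (1255).

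**Figure D2:**
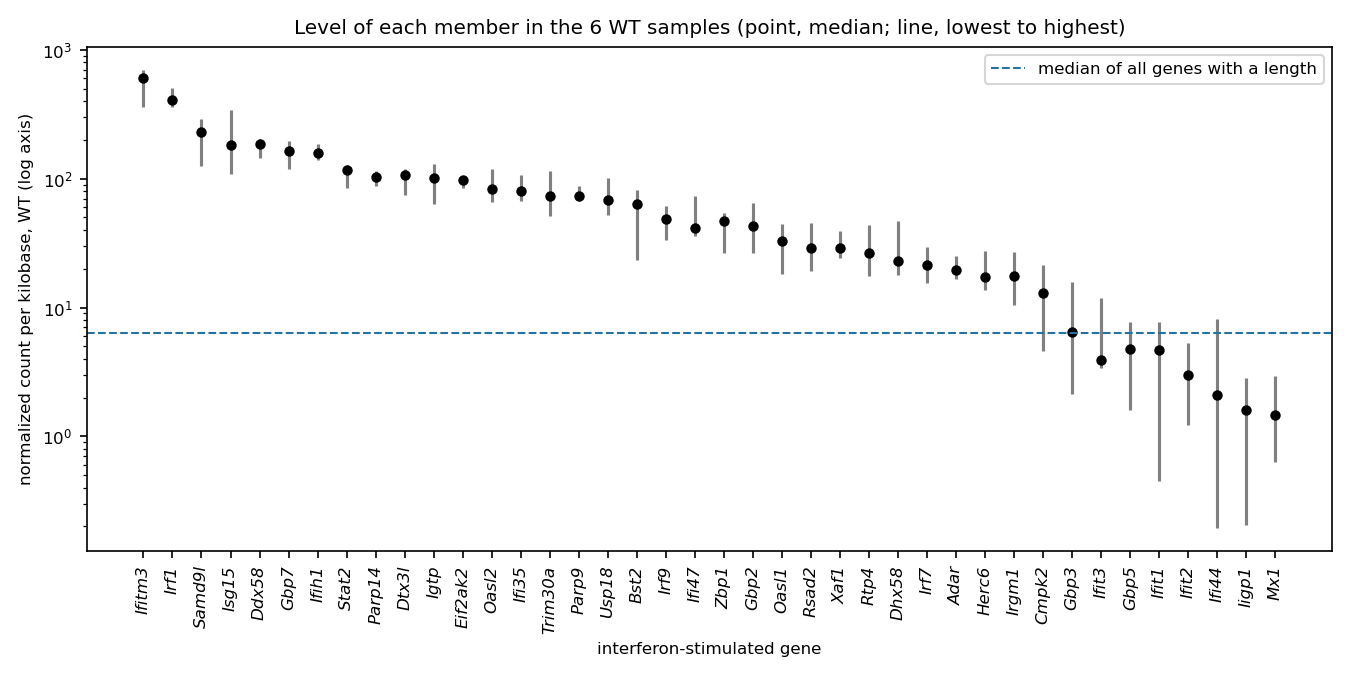
Level of the 40 members in the 6 WT samples, as normalized count per kilobase of exon on a log axis. Points are medians, lines run from the lowest to the highest sample, and the dashed line is the median of all genes with a length, 6.37.

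The members with very few counts were Ifit1, Ifit2, Ifit3, Mx1, Iigp1 and Ifi44. In WT they had between 1 and 31 counts per sample. Ifit1, Ifit2 and Ifit3, whose products bind foreign RNA, had highest counts of 17, 16 and 10 in WT, 15, 28 and 10 in Ahr-/- and 44, 55 and 49 in the samples labelled Ahrr-/-. Their mean normalized counts were 11.7, 12.4 and 9.82 in WT, 6.03, 10.7 and 3.03 in Ahr-/- and 17.3, 23.1 and 21.1 in the samples labelled Ahrr-/-, and all groups overlapped. These 6 had a mean deposited value less than 1 above the lowest value of the table and were not tested, except Ifi44 in the samples labelled Ahrr-/- against WT. Without that minimum only a small share of the 22708 genes passed in any comparison, with counts given at the end. In those fits limma called 0 of the 6 in each comparison of genotypes and between the sexes, near that share. Those at an unadjusted p below 0.05 were Ifit3 between Ahr-/- and WT (-0.37, adjusted p 0.187), and Ifit1 (-0.46), Ifit3 (-0.66) and Ifi44 (-0.47) between Ahr-/- and the samples labelled Ahrr-/- (lowest adjusted p 0.0893, Ifit3).

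Promoter sequence was not used to choose the members. RefSeq promoters (GRCm38.p6, 250 bases before to 50 after a start) were matched for 32 of the 40 members, as 39 promoters. Those unmatched were Parp14, Rtp4, Mx1, Iigp1, Usp18, Dhx58, Parp9 and Zbp1. The core letters of the interferon-stimulated response element, GAAANNGAAA on either strand, were in 18 of the 39 promoters (46.2%), against 3.44% of all 32851 promoters. They came from 17 members, and 13 of these had the letters before the start. The gamma-activated letters TTCNNNGAA were in 25.6% of member promoters and 8.3% of all. The dioxin response core GCGTG, which the AHR complex binds, was in 41% of member promoters and 32.4% of all. A match is a description of the sequence, and no match says only that these letters are not in this window. Windows of 30 bases are shown for members that the values below turn on, and for Ifit1 as a gene with matching letters and few counts. Capitals mark the response element core on either strand, and each is read 5' to 3' on the strand named. The windows lie at chr4:156200871-156200900 (Isg15, minus), chr7:141010714-141010743 (Ifitm3, minus), chr7:104465210-104465239 (Trim30a, minus), chr3:142530273-142530302 (Gbp7, plus), chr12:26456553-26456582 (Rsad2, minus) and chr19:34640785-34640814 (Ifit1, plus).
Isg15: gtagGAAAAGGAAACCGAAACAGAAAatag
Ifitm3: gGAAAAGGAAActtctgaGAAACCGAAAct
Trim30a: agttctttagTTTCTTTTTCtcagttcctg
Gbp7: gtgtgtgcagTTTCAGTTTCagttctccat
Rsad2: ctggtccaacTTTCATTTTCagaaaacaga
Ifit1: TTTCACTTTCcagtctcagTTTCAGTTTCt
Isg15 had 3 overlapping matches in its window, and Ifitm3 and Ifit1 had 2 each. Oasl1 had no match in its promoter window.

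Each comparison was fitted across all genes with limma, with a model of genotype and sex on the deposited values of the groups compared. A gene passed at an adjusted p below 0.05 over all genes tested, and a gene that did not pass can still differ by a small amount. The comparisons share samples, so their values are given side by side and no overlap between them is read as a result.

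Between Ahr-/- and WT, 11346 genes were tested, 34 members among them. Members higher in Ahr-/- that passed numbered 1 (Trim30a), where 5.16% of all genes did, and members higher in WT numbered 3 (Usp18, Ifitm3 and Oasl1), where 3.68% did. At an unadjusted p below 0.05 there were 11 of the 34 members and 2638 genes (23.3%). Higher and lower members numbered 12 and 22, and their median difference was -0.12, against -0.004 over all genes tested. On leaving out single samples the members' median ran from -0.157 to -0.071. Without both F3 libraries the median was -0.07, 3 members passed, and 586 genes passed in place of 1003. Without Ahr-/- F1, 623 genes passed.

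Between the samples labelled Ahrr-/- and WT, limma called 0 of 35 tested members, where 0.0779% of 11546 genes (9 genes) passed. At an unadjusted p below 0.05 there were 6 members and 853 genes, and limma voom on the recovered counts also called 0 members and had 6 at that level. Higher and lower members numbered 13 and 22, with a median difference of -0.16 against 0.01 over all genes. After quantile normalization they numbered 9 and 26. The median of -0.16 was 0.03 without the libraries with many epithelial counts (4 members at an unadjusted p below 0.05, 0 called). On leaving out single samples this median ran from -0.197 to -0.058. The 9 genes became 4 without any 1 of WT F1, F2, M2 and M3 or of F2, M2 and M3 labelled Ahrr-/-. They became 5 without F3 labelled Ahrr-/- and 25 without F1 labelled Ahrr-/-.

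Between Ahr-/- and the samples labelled Ahrr-/-, 3 members passed as higher in Ahr-/- (Gbp7, Trim30a and Zbp1), where 6.84% of 11474 genes did. A further 3 passed as higher in the samples labelled Ahrr-/- (Ifitm3, Usp18 and Oasl1), where 8.04% did. At an unadjusted p below 0.05 there were 12 of the 34 tested members and 3760 genes (32.8%). Higher and lower members numbered 18 and 16, or 22 and 12 when each sample was centred on its median, and the median difference was 0.03 against 0.003 over all genes. Without the libraries with many epithelial counts, 626 genes passed in place of 1708, and the members' median was -0.11. There 4 members passed, Ifitm3, Usp18, Oasl1 and Rsad2, all lower in Ahr-/-. Without single Ahr-/- libraries, the number of genes was 907 (F1), 970 (F2), 839 (M1), 933 (M2) and 818 (M3). Without F1, F3 or M3 labelled Ahrr-/-, it was 2574, 1001 and 923. The members that passed numbered 3 without Ahr-/- F1, M1, M2 or M3 and without F3 or M3 labelled Ahrr-/-, with Zbp1, Trim30a and Gbp7 lost each time.

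**Figure D3:**
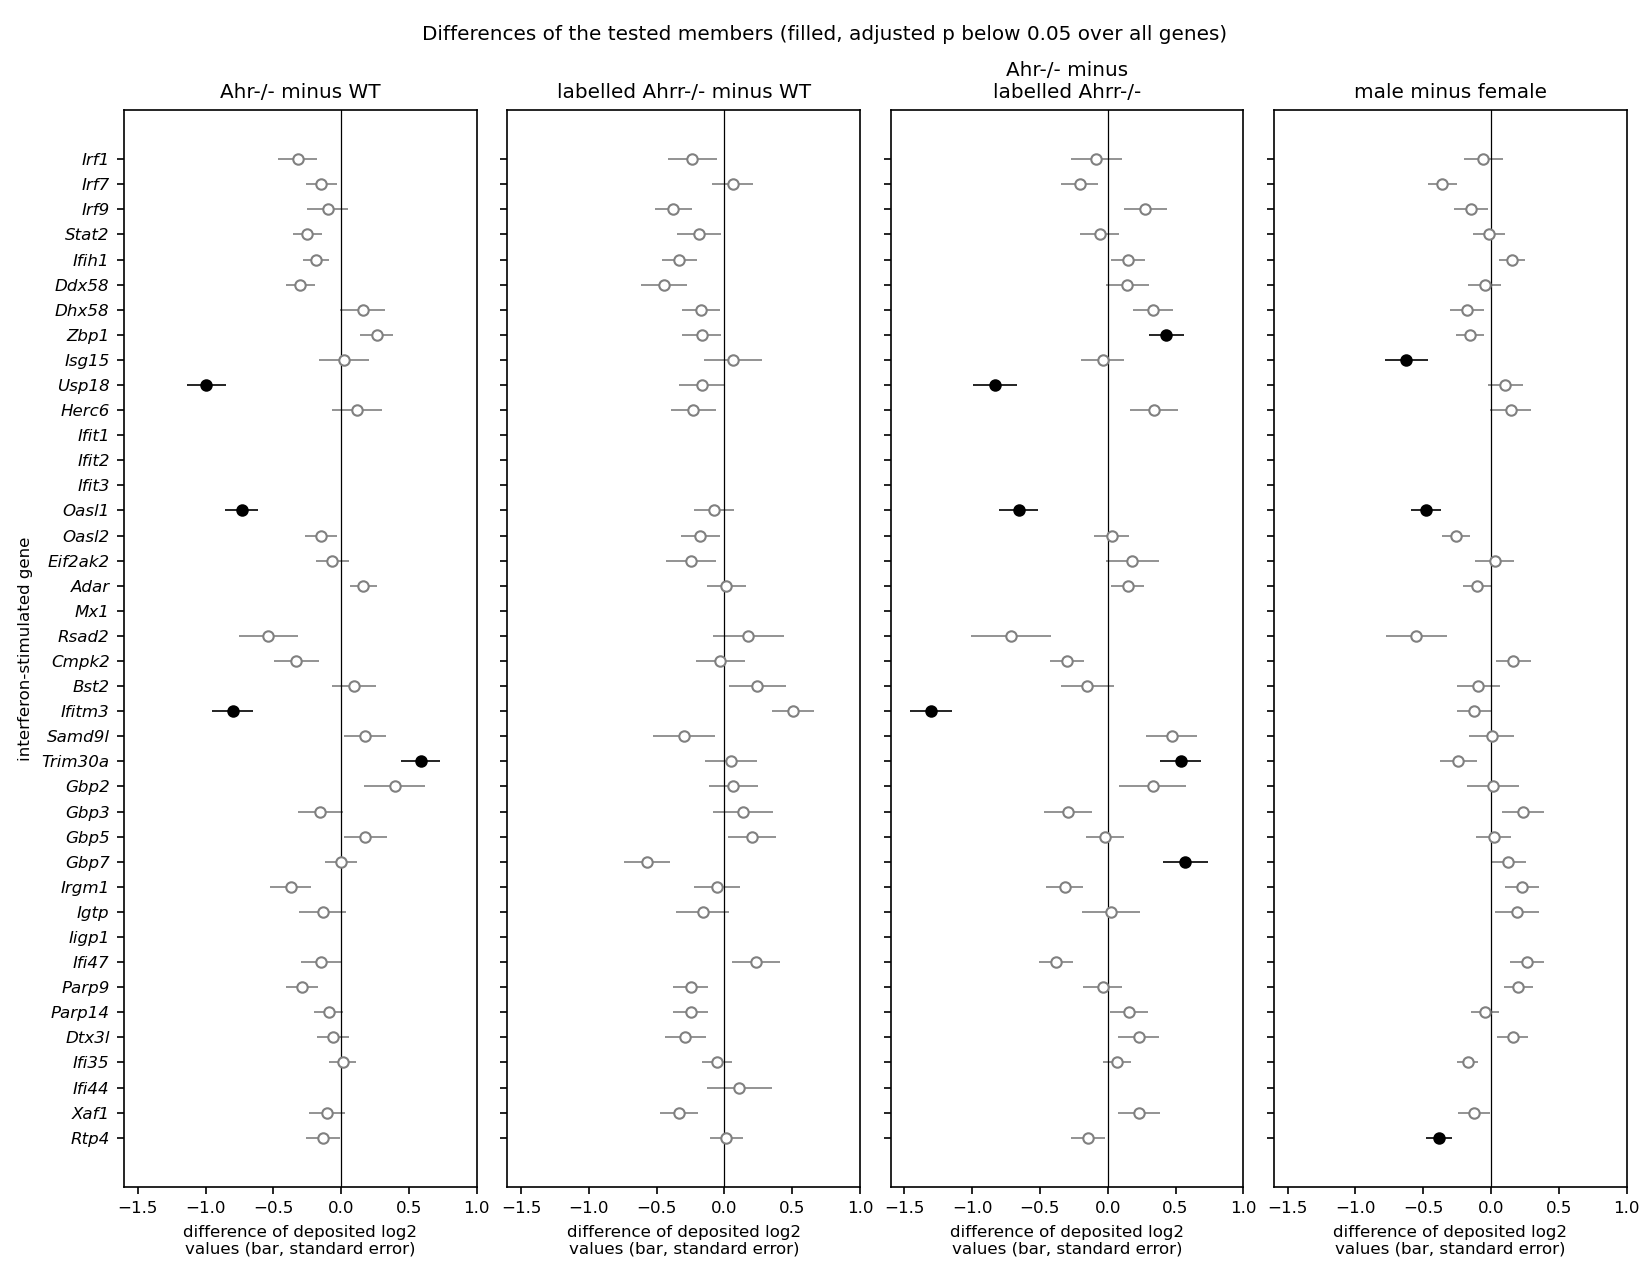
Difference of deposited log2 values (horizontal axes, bars are standard errors) for each tested member in 4 comparisons, with filled points where the adjusted p over all genes was below 0.05. Usp18, Oasl1 and Ifitm3 passed as lower in Ahr-/- than in WT, at -0.996, -0.73 and -0.80, and most other points lay within 0.5 of 0.

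Among the transcription factors, IRF1 drives many of these genes on its own, IRF7 amplifies interferon production, and STAT2 and IRF9 belong to the factor that type I interferon activates. Irf1 had deposited values of 10.54, 10.71 and 11.02 in WT, 9.89, 10.47 and 10.86 in Ahr-/-, and 9.87, 10.58 and 10.86 in the samples labelled Ahrr-/-. The low samples were Ahr-/- M1 and M3 labelled Ahrr-/-, and all groups overlapped. All 4 factors had lower means in Ahr-/- than in WT under each scaling, with differences from -0.32 (Irf1) to -0.10 (Irf9), and none passed (lowest adjusted p 0.163, Stat2). Irf9 changed direction with sample weights (0.03), without Ahr-/- F3 (0.03) and without both F3 libraries (0.07).

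Of the nucleic acid sensors, Ifih1 encodes MDA5, Ddx58 RIG-I, Dhx58 the related LGP2, and Zbp1 a sensor of Z-form nucleic acid that can trigger cell death. Ifih1 had deposited values of 10.22, 10.39 and 10.62 in WT, 9.90, 10.22 and 10.49 in Ahr-/-, and 9.88, 10.05 and 10.37 in the samples labelled Ahrr-/-. Ddx58 had 10.08, 10.42 and 10.54 in WT, 9.77, 10.09 and 10.18 in Ahr-/-, and 9.38, 9.88 and 10.39 in the samples labelled Ahrr-/-. Both genes overlapped between all groups, with M3 labelled Ahrr-/- the lowest sample of each. Ddx58 differed between Ahr-/- and WT by -0.30 (SE 0.11, adjusted p 0.0908), and passed in 3 of 27 settings (adjusted p 0.0426 to 0.289). A setting here is that fit or an alternative to it. WT F1 was the library whose removal let it pass (-0.36, adjusted p 0.0426).

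Zbp1 had deposited values of 7.25, 7.82 and 7.97 in WT, 7.88, 8.0 and 8.16 in Ahr-/-, and 7.15, 7.66 and 7.84 in the samples labelled Ahrr-/-. All 6 Ahr-/- samples were above all 6 labelled Ahrr-/-, while WT overlapped both groups. The difference between Ahr-/- and the samples labelled Ahrr-/- was 0.43 (SE 0.13, adjusted p 0.0379). It was 0.22 (adjusted p 0.349) without the libraries with many epithelial counts, and it passed in 16 of 26 settings (adjusted p 0.0233 to 0.349). It did not pass without Ahr-/- F1, F2, M1, M2 or M3 (adjusted p 0.0729, 0.0531, 0.0747, 0.0819 and 0.0951). Nor did it without F3, M1 or M3 labelled Ahrr-/- (adjusted p 0.0716, 0.0597 and 0.0857). Zbp1 differed between Ahr-/- and WT by 0.26 (adjusted p 0.212).

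Dhx58 had deposited values of 6.84, 7.05 and 7.74 in WT, 6.78, 7.34 and 7.56 in Ahr-/-, and 6.78, 6.93 and 7.33 in the samples labelled Ahrr-/-. The groups overlapped, and WT F2 was the highest sample. It differed between Ahr-/- and the samples labelled Ahrr-/- by 0.33 (SE 0.15, adjusted p 0.136). It passed in 1 of 26 settings, without Ahr-/- F3 (0.46, adjusted p 0.0236, range 0.0236 to 0.585). All 4 sensors had lower means in the samples labelled Ahrr-/- than in Ahr-/- and in WT, under each scaling. Without the libraries with many epithelial counts this held against WT, while Ahr-/- was lower than the samples labelled Ahrr-/- for Ddx58 (-0.16) and Ifih1 (-0.02).

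In the ISG15 system, ISG15 is the modifier, HERC6 attaches it to proteins, and USP18 removes it and also dampens signalling from the type I receptor. Usp18 had deposited values of 7.69, 7.97 and 8.43 in WT, 6.65, 7.09 and 7.30 in Ahr-/-, and 7.32, 7.95 and 8.25 in the samples labelled Ahrr-/-. Every Ahr-/- sample was below every sample of the other groups, which overlapped each other. The difference between Ahr-/- and WT was -0.996 (SE 0.14, adjusted p 0.000293), and it passed in 26 of 26 settings, with an adjusted p of at most 0.00368. The difference from the samples labelled Ahrr-/- was -0.83 (SE 0.16, adjusted p 0.00485). An annotated gene on the opposite strand shares exon sequence with Usp18, and the libraries do not mark strand, so their reads cannot be told apart. Usp18 lies at chr6:121245906-121270917 on the plus strand (GRCm38).

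Isg15 varied most within this system. It had deposited values of 7.13, 7.63 and 8.31 in WT, 7.08, 7.57 and 8.35 in Ahr-/-, and 6.76, 7.75 and 8.32 in the samples labelled Ahrr-/-. The groups overlapped, and the highest sample of each was female. Its difference between Ahr-/- and WT was 0.02 (SE 0.19, adjusted p 0.961). Herc6 differed by 0.11 and did not pass.

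Among RNA-binding effectors, Oasl1 encodes a relative of the 2'-5' oligoadenylate synthetases that inhibits translation of Irf7, and Eif2ak2 and Adar encode the kinase PKR and an RNA-editing enzyme. Oasl1 had deposited values of 6.68, 7.16 and 7.45 in WT, 6.08, 6.20 and 6.74 in Ahr-/-, and 6.50, 6.89 and 7.58 in the samples labelled Ahrr-/-. Of the Ahr-/- samples, F1 and F3 reached the lowest WT samples, M1 and M3, and the other 4 were below every sample of the other groups. The difference was -0.73 (SE 0.12, adjusted p 0.00113) from WT and -0.66 (SE 0.15, adjusted p 0.0103) from the samples labelled Ahrr-/-, and each passed in 26 of 26 settings (adjusted p at most 0.0127 and 0.0400). An antisense gene shares exon sequence with Oasl1 (chr5:114923240-114937915, plus strand) as well. Oasl2, Eif2ak2 and Adar differed between Ahr-/- and WT by -0.15, -0.07 and 0.16, and none passed.

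Of the other antiviral effectors, IFITM3 sits in endosomal membranes and restricts virus entry. Ifitm3 had deposited values of 8.25, 8.89 and 9.07 in WT, 7.68, 7.98 and 8.26 in Ahr-/-, and 8.89, 9.42 and 9.48 in the samples labelled Ahrr-/-. Ahr-/- F3 alone reached the lowest WT sample, M1, and no Ahr-/- sample reached the samples labelled Ahrr-/-. The difference was -0.80 (SE 0.15, adjusted p 0.00309) from WT and -1.31 (SE 0.15, adjusted p 9.00e-05) from the samples labelled Ahrr-/-, and each passed in 27 of 27 settings (adjusted p at most 0.0208 and 0.00210). Between the samples labelled Ahrr-/- and WT it was 0.50 (SE 0.16, adjusted p 0.502).

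Trim30a, which encodes a tripartite motif protein, went the other way. It had deposited values of 8.09, 8.51 and 9.05 in WT, 8.87, 9.14 and 9.30 in Ahr-/-, and 7.96, 8.76 and 9.09 in the samples labelled Ahrr-/-. WT F2 was within the Ahr-/- range and the other 5 WT samples were below it. The difference from WT was 0.59 (SE 0.14, adjusted p 0.0163). It was 0.60 (adjusted p 0.0544) without both F3 libraries, and it passed in 25 of 27 settings (adjusted p 0.00277 to 0.0621). In comparison with the samples labelled Ahrr-/- it was 0.54 (SE 0.15, adjusted p 0.0303), and 0.26 (adjusted p 0.276) without the libraries with many epithelial counts. It passed there in 16 of 27 settings (adjusted p 0.0137 to 0.276), and not without Ahr-/- F1, F2, M1, M2 or M3 (adjusted p 0.0504, 0.0602, 0.0550, 0.0713 and 0.0809). Without F3, M1 or M3 labelled Ahrr-/-, its adjusted p was 0.0539, 0.0563 and 0.0681.

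**Figure D4:**
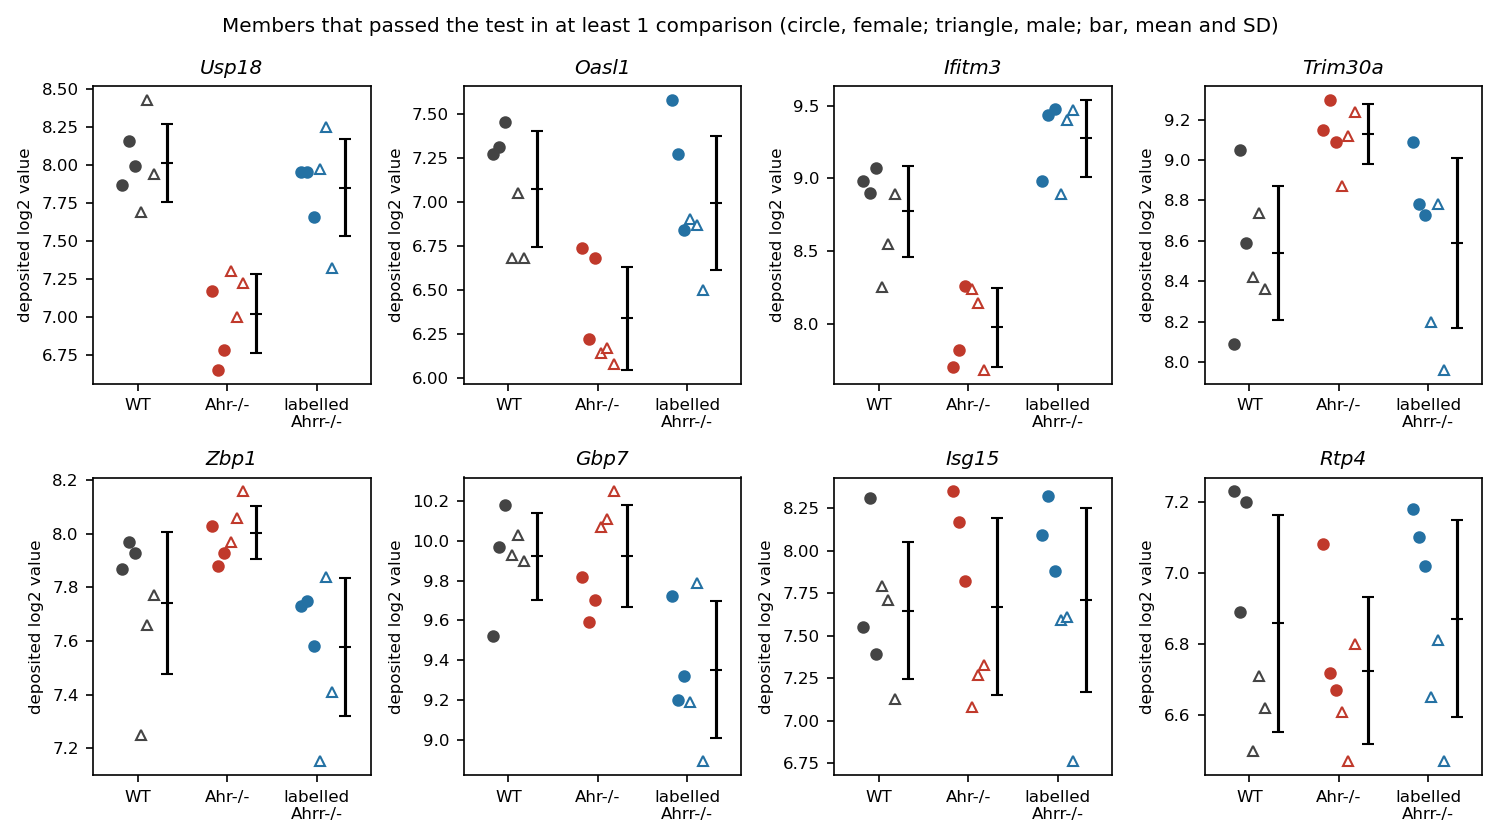
Deposited log2 value of the 8 members that passed in at least 1 comparison, in each sample, with circles for females, triangles for males and bars for mean and SD of 6 samples. Usp18 was at most 7.30 in Ahr-/- and at least 7.32 in all other samples.

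Rsad2 encodes viperin, which makes a chain-terminating nucleotide, and Cmpk2, its neighbour, encodes a nucleotide kinase. Rsad2 had the largest SD within genotypes of any member (0.60), with deposited values of 7.14, 7.53 and 8.01 in WT, 6.59, 6.82 and 8.0 in Ahr-/-, and 6.40, 8.08 and 8.64 in the samples labelled Ahrr-/-. In Ahr-/-, F1 was high and the other 5 were at most 7.27, and among the samples labelled Ahrr-/- M1 and M3 were low. Its difference between Ahr-/- and WT was -0.54 (SE 0.22, adjusted p 0.140), and without Ahr-/- F1 it was -0.72 and passed (adjusted p 0.0284, range 0.0284 to 0.349). For Rsad2 the difference from the samples labelled Ahrr-/- was -0.71 (SE 0.29, adjusted p 0.108). It passed there without M1 labelled Ahrr-/- (-0.93, adjusted p 0.0356) and without the libraries with many epithelial counts (-1.21, adjusted p 0.0122, range 0.0122 to 0.274). Cmpk2 had deposited values of 6.10, 6.78 and 7.19 in WT, 6.13, 6.36 and 6.59 in Ahr-/-, and 6.45, 6.64 and 6.89 in the samples labelled Ahrr-/-. The WT samples covered the range of both other groups, and the difference between Ahr-/- and WT was -0.33 (SE 0.17, adjusted p 0.244). Against the samples labelled Ahrr-/- it was -0.30 (SE 0.12, adjusted p 0.104), and passed in 1 of 26 settings, with sample weights (adjusted p 0.0393, range 0.0393 to 0.263). Both genes lie on chromosome 12, as Ahr does, at 9.1 and 9.0 megabases from it.

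Samd9l, which encodes a growth-restraining antiviral factor, had deposited values of 9.54, 10.35 and 10.69 in WT, 10.13, 10.48 and 10.66 in Ahr-/-, and 9.40, 9.87 and 10.80 in the samples labelled Ahrr-/-. WT F1 and M3 labelled Ahrr-/- were the low samples, and all groups overlapped. Its difference between Ahr-/- and the samples labelled Ahrr-/- was 0.47 (SE 0.19, adjusted p 0.0975). It passed in 1 of 27 settings, without F1 labelled Ahrr-/- (0.64, adjusted p 0.00947, range 0.00947 to 0.724). Bst2, which encodes the virus tether tetherin, differed between Ahr-/- and WT by 0.09 and did not pass.

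Guanylate-binding proteins (GBP) and immunity-related GTPases (Irgm1, Igtp, Iigp1 and Ifi47) attack the vacuoles of pathogens and respond to type II interferon. Gbp7 had deposited values of 9.52, 9.95 and 10.18 in WT, 9.59, 9.95 and 10.25 in Ahr-/-, and 8.89, 9.26 and 9.79 in the samples labelled Ahrr-/-. F1 and M2 labelled Ahrr-/- reached the other groups, and the other 4 were below every WT and Ahr-/- sample. Ahr-/- differed from the samples labelled Ahrr-/- by 0.57 (SE 0.16, adjusted p 0.0323), in 18 of 27 settings, and by 0.29 (adjusted p 0.247, range 0.0104 to 0.247) without the libraries with many epithelial counts. It did not pass without Ahr-/- F1, M1, M2 or M3 (adjusted p 0.0627, 0.0718, 0.0714 and 0.0846) or without F3, M1 or M3 labelled Ahrr-/- (adjusted p 0.0510, 0.0606 and 0.0695). Another annotated gene on the same strand shares exon sequence with Gbp7. From WT it differed by 0.002 in Ahr-/- and by -0.57 (SE 0.17, adjusted p 0.502) in the samples labelled Ahrr-/-.

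Gbp2 had deposited values of 6.94, 7.38 and 7.80 in WT, 7.13, 7.68 and 8.70 in Ahr-/-, and 6.86, 7.53 and 7.78 in the samples labelled Ahrr-/-. Ahr-/- F1, M2 and M3 were above every sample of the other groups, and the groups overlapped. Gbp3 had 5.69, 6.15 and 6.73 in WT, 5.71, 6.06 and 6.17 in Ahr-/-, and 5.76, 6.28 and 6.98 in the samples labelled Ahrr-/-, with WT M2 and M2 labelled Ahrr-/- high. Their differences between Ahr-/- and WT were 0.40 (adjusted p 0.309) and -0.15 (adjusted p 0.613). In Ahr-/-, Gbp3 differed from the samples labelled Ahrr-/- by -0.29 (adjusted p 0.266) and passed in 1 of 26 settings, with sample weights (adjusted p 0.0364, range 0.0364 to 0.488). Gbp5 and Igtp differed between Ahr-/- and WT by 0.18 and -0.14, and neither passed.

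Irgm1 had deposited values of 6.87, 7.31 and 7.75 in WT, 6.59, 6.93 and 7.37 in Ahr-/-, and 6.89, 7.25 and 7.71 in the samples labelled Ahrr-/-. Ifi47 had 7.19, 7.32 and 7.93 in WT, 6.96, 7.27 and 7.57 in Ahr-/-, and 7.15, 7.75 and 8.01 in the samples labelled Ahrr-/-. All groups overlapped for both genes, and Ahr-/- held the lowest sample of each. Irgm1 differed between Ahr-/- and WT by -0.37 (SE 0.15, adjusted p 0.151), and Ifi47 between Ahr-/- and the samples labelled Ahrr-/- by -0.38 (SE 0.13, adjusted p 0.0534). Irgm1 passed in 1 of 26 settings, without WT M1 (-0.49, adjusted p 0.0312, range 0.0312 to 0.391). Ifi47 passed in 5 of 26 (adjusted p 0.0231 to 0.458), among them without Ahr-/- F3 (0.0414), without F1 labelled Ahrr-/- (0.0453) and without F2 labelled Ahrr-/- (0.0231). Igtp shares exon sequence with Irgm2, and Ifi47 with Olfr56, so counting could have split their reads.

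Parp9, Parp14 and Dtx3l, whose products modify proteins with ADP-ribose or ubiquitin, had differences between Ahr-/- and WT of -0.29, -0.09 and -0.06. None passed, and the lowest adjusted p was 0.146 (Parp9). Parp9 and Dtx3l share exon sequence on opposite strands and cannot be told apart there. Of the remaining members, Ifi35, Xaf1 and Rtp4 differed between Ahr-/- and WT by 0.01, -0.10 and -0.13, and none passed.

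Over the 34 members tested with all samples, each sample's median deviation from the members' means was lowest in M1 and M3 labelled Ahrr-/-, at -0.31 in each, and highest in WT F2, at 0.21. Those low samples also had the highest epithelial sums, 22309 and 22836. The other libraries with an epithelial sum above 15000, F3 labelled Ahrr-/- and WT F1, were not low, with deviations of 0.04 and 0.06. M3 labelled Ahrr-/- had the lowest eosinophil marker sum of all samples, 26061, while M1 labelled Ahrr-/- had 57108. The part of these markers in the members' values was not tested. The other 15 samples lay between -0.17 and 0.16.

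**Figure D5:**
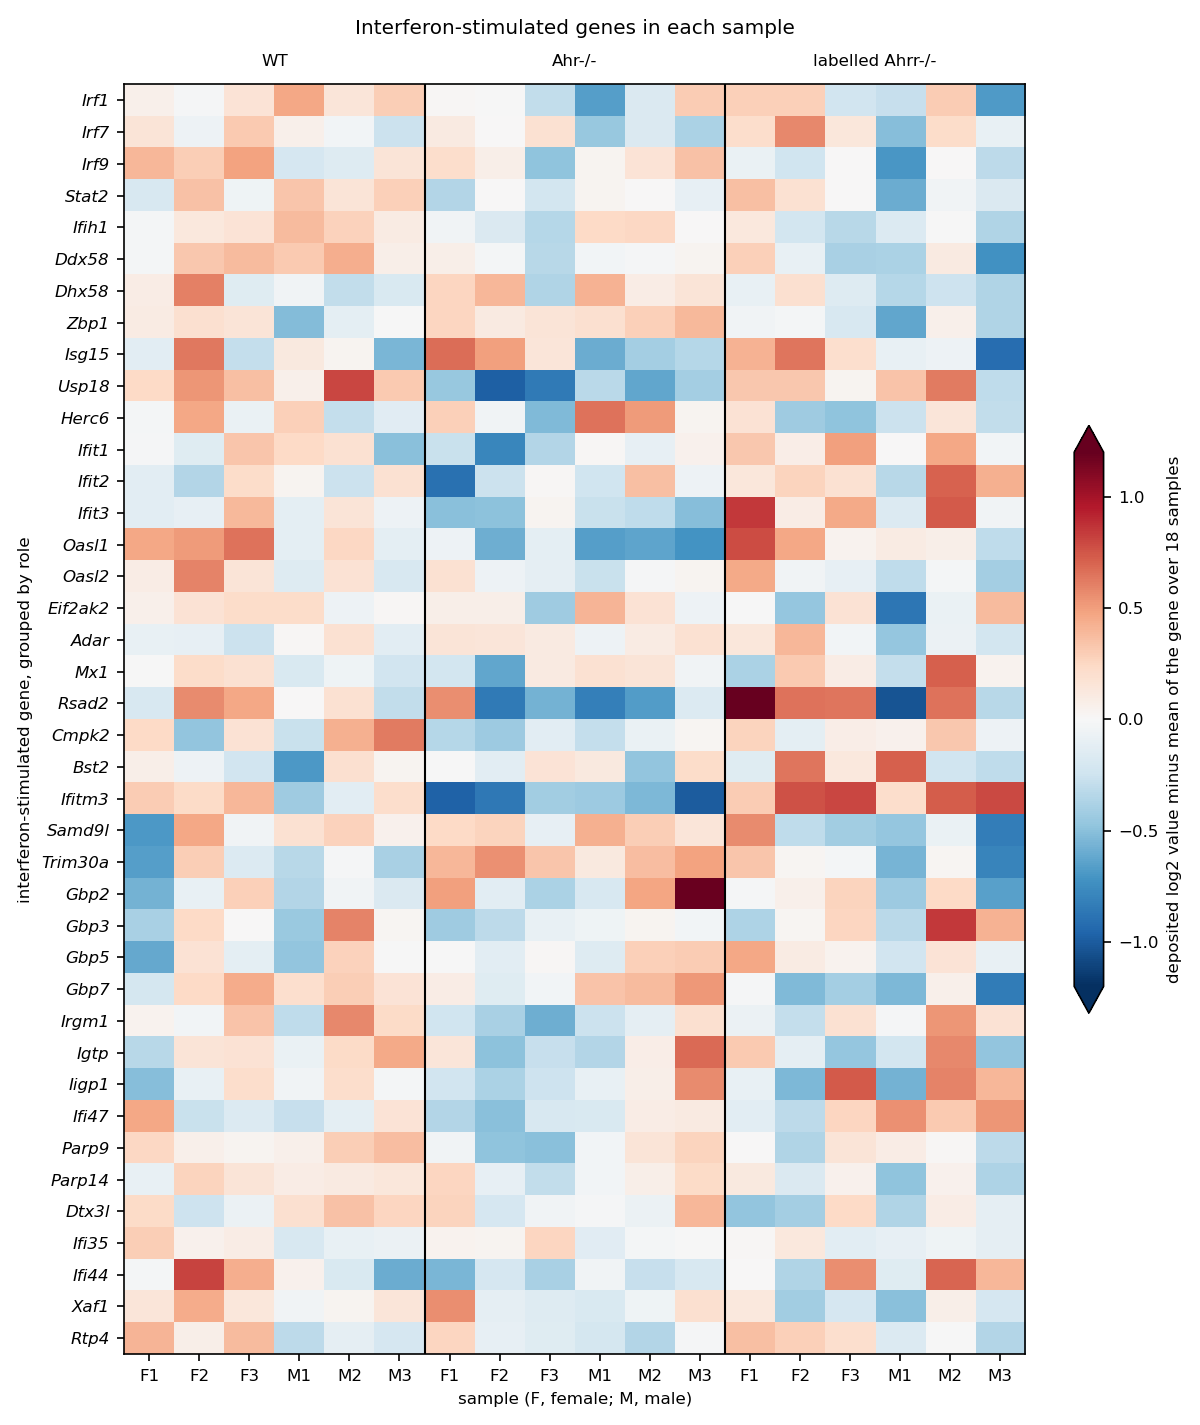
Deposited log2 value of each member minus its mean over the 18 samples (color scale from -1.2 to 1.2), with members ordered by role and samples by genotype. M1 and M3 labelled Ahrr-/- were low for most members, and Usp18, Oasl1 and Ifitm3 were low across Ahr-/-.

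Other genes of the pathway were read from lists. Beside the counts for these and the marker lists, 5.16% of all genes passed as higher in Ahr-/- than in WT and 3.68% as lower. Against the samples labelled Ahrr-/-, 6.84% passed as higher in Ahr-/- and 8.04% as lower. Between the samples labelled Ahrr-/- and WT, 0.0779% passed. Of 21 interferon ligands 12 were in the table, 11 of them with 18 counts or fewer over all samples. Ifnk was the most abundant, and none reached the minimum mean for a test. All 6 receptor genes were in the table. Between Ahr-/- and WT, Ifngr2, which encodes a chain of the type II receptor, had deposited values of 9.30, 9.40 and 9.75 in WT and 8.76, 8.98 and 9.15 in Ahr-/-, without overlap. The difference was -0.48 (SE 0.11, adjusted p 0.0103), and against the samples labelled Ahrr-/- it was -0.61 (SE 0.12, adjusted p 0.00527). Ifnar1, Ifnar2, Ifngr1 and Il10rb differed between Ahr-/- and WT by -0.19, 0.10, 0.06 and -0.26, and none passed. Ifnlr1, of the type III receptor, was tested against the samples labelled Ahrr-/-, where Ahr-/- differed by -0.41 (adjusted p 0.146). Between the samples labelled Ahrr-/- and WT, limma called 0 of the 6 receptors, with 0 at an unadjusted p below 0.05 and differences from 0.09 to 0.48.

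Of the receptor kinase genes Jak1, Jak2 and Tyk2, limma called 0 in each comparison of genotypes, with 0 at an unadjusted p below 0.05. Their differences between Ahr-/- and WT were 0.04, -0.12 and 0.13. Of 9 tested negative regulators, Tiparp alone passed between Ahr-/- and WT, and Socs3 (-0.65, adjusted p 0.00811) also passed against the samples labelled Ahrr-/-.

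Of 16 tested inducers of interferon, 2 passed as higher in Ahr-/- than in WT, Trim25 (0.72, adjusted p 0.0488) and Unc93b1 (0.53, adjusted p 0.00646). Against the samples labelled Ahrr-/-, 4 of 17 passed, with Trim25 higher in Ahr-/- (0.79) and Irf8 (-0.82), Tlr7 (-0.54) and Tlr4 (-0.48) lower. A further list of 83 interferon-stimulated genes, 61 of them tested, had 2 higher in Ahr-/- than in WT (Gbp8, 1.14, and Gbp9, 0.64) and 2 lower (Slfn9, -0.74, and Ifitm2, -0.54). Of all genes, 5.16% passed there as higher and 3.68% as lower. The median difference of this list was 0.06. Against the samples labelled Ahrr-/-, 7 of 60 passed as higher in Ahr-/- and 6 as lower, where 6.84% and 8.04% of all genes did. Gbp8 (1.05), Ifi30 (-1.04), Lgals3bp (-1.0) and Gbp9 (0.89) had the largest differences. Between the samples labelled Ahrr-/- and WT, limma called 0 negative regulators, 0 inducers and 0 further genes, with 1, 2 and 11 at an unadjusted p below 0.05.

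Sums or single genes of the cell type marker lists also differed between the genotypes. Which cells these transcripts came from was not tested. The plasmacytoid dendritic cell list (8 of 8 in the table, 72.3% from Runx2) summed to 721, 758 and 972 normalized counts in Ahr-/- and 1328, 1477 and 1662 in WT, while its marker Siglech had 0 to 21 counts per sample. Of its 4 tested genes, 3 passed as lower in Ahr-/- than in WT, Runx2 (-0.88), Klk1 (-0.74) and Ccr9 (-0.60). Neutrophil markers (8 of 8) summed to 54979, 83461 and 113331 in Ahr-/- and 23766, 35681 and 48619 in WT, nearly all from Retnlg. Of 6 tested, Retnlg passed as higher (1.22) and Mmp8 as lower (-0.92) in Ahr-/- than in WT, so the sum is that of Retnlg. Eosinophil markers passed as higher in Ahr-/- than in WT for 2 of 8 tested genes, Prg2 (2.30) and Alox15 (0.58). In the samples labelled Ahrr-/-, B cell and plasma cell markers (7 of 8 in the table, 91.4% from Jchain) summed to 365, 4077 and 6132, against 244, 590 and 1846 in WT. None of the 4 tested genes of this list passed in that comparison (limma, lowest adjusted p 0.5085, Pou2af1). S100a8 (2.06) and S100a9 (2.10) passed there as higher than in WT. In the macrophage and dendritic cell list Csf1r alone passed between Ahr-/- and WT (0.49). Its other tested genes went both ways, Cd74 (-0.41) and C1qb (0.12) among them. Of the dividing cell list Top2a alone (-0.92) passed there. In the endothelial and fibroblast list, 89.8% of it from Pecam1, Pecam1 alone (-0.63) passed. Against the samples labelled Ahrr-/-, 5 of 10 epithelial markers passed as lower in Ahr-/-, with a median difference of -1.01 over the list. In the same comparison 4 of 6 neutrophil markers passed, Retnlg higher in Ahr-/- (1.29) and S100a8 (-1.73), S100a9 (-1.69) and Mmp8 (-1.58) lower. Eosinophil markers passed there as higher in Ahr-/- for 4 of 8 (Prg2, 2.07, Alox15, 0.79, Il5ra, 0.75, and Siglecf, 0.72). Passing as lower were 2 of 4 B and plasma cell markers (Jchain, -3.21, and Pou2af1, -1.39), 3 of 4 plasmacytoid markers (Klk1, -1.16, Tcf4, -0.71, and Runx2, -0.67) and 3 of 6 dividing cell markers (largest Top2a, -1.11). In the macrophage and dendritic cell list C1qb alone passed, as lower (-1.06). There Csf1r was higher in Ahr-/- (0.34) and the other tested genes were lower, without passing. Endothelial and fibroblast markers passed as lower for 2 of 7 (Col1a2, -1.09, and Cdh5, -0.70). T cell, NK cell and innate lymphocyte markers (10 of 12 in the table) had no tested gene, and their sums were at most 116. The part of these markers in the members' results was not tested.

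Males and females were compared over all 18 samples with genotype in the model. Members higher in males that passed numbered 0 by limma and 0 by limma voom, with 1 (Ifi47) at an unadjusted p below 0.05 by limma, where 0.602% of 11468 genes passed. Members higher in females that passed numbered 3 (Isg15, Oasl1 and Rtp4), where 2.46% did. By limma, 8 of 34 members and 2145 genes (18.7%) had an unadjusted p below 0.05, in either direction. Higher and lower members numbered 15 and 19, 11 and 23 when each sample was centred on its median, or 17 and 17 after quantile normalization. The median difference was -0.05, against 0.01 over all genes.

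Isg15 had deposited values of 7.39, 8.09 and 8.35 in females and 6.76, 7.33 and 7.79 in males. Females and males overlapped in WT only. The male minus female difference was -0.62 (SE 0.16, adjusted p 0.0374), and within WT, Ahr-/- and the samples labelled Ahrr-/- it was -0.21, -0.89 and -0.78. Oasl1 had deposited values of 6.22, 7.27 and 7.58 in females and 6.08, 6.68 and 7.05 in males, with a difference of -0.48 (SE 0.11, adjusted p 0.0234). Rtp4, which encodes a chaperone of receptors, had 6.67, 7.08 and 7.23 in females and 6.47, 6.62 and 6.81 in males, with a difference of -0.38 (SE 0.10, adjusted p 0.0361). An annotated gene on its strand shares exon sequence with Rtp4. Within each genotype the sexes overlapped in the samples labelled Ahrr-/- for Oasl1 and in Ahr-/- for Rtp4, and elsewhere females were higher.

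Irf7 had deposited values of 7.03, 7.25 and 7.67 in females and 6.58, 6.92 and 7.31 in males. The sexes overlapped, and the difference was -0.36 (SE 0.11, adjusted p 0.0721). These results rested on few samples. Of 33 settings, Isg15 passed in 20, Oasl1 in 25 and Rtp4 in 19 (adjusted p up to 0.998 for each, within WT alone). Irf7 passed in 2 of 33, with sample weights and without WT M1 (-0.39, adjusted p 0.0475, range 0.0423 to 0.998). No member passed without WT M3, without Ahr-/- F1 or without M3 labelled Ahrr-/-, where limma gave 6, 6 and 9 members at an unadjusted p below 0.05. Without Ahr-/- M1 or M2, or F1 or F2 labelled Ahrr-/-, Oasl1 alone passed. Isg15 also failed without WT F2, Ahr-/- F2 or Ahr-/- M3 (adjusted p 0.0820, 0.0882 and 0.0648), and Rtp4 without WT F3 or M2 (adjusted p 0.0538 and 0.0541). Without both F3 libraries Oasl1 did not pass (adjusted p 0.0651), and without the libraries with many epithelial counts Rtp4 did not (adjusted p 0.0871).

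The number of genes that differed between the sexes, 351, also moved with single libraries. Without WT F1, F2, M1 or M3 it was 733, 181, 595 and 160. Without Ahr-/- F1, F2, M1, M2 or M3 it was 205, 159, 142, 180 and 211. Without F1, F2, F3 or M3 labelled Ahrr-/- it was 206, 173, 577 and 188. Within a single genotype, with 3 samples of each sex, a choice made after seeing the data, the sexes differed in 5, 457 and 5 genes for WT, Ahr-/- and the samples labelled Ahrr-/-. Of the members, Isg15 in Ahr-/- alone passed (-0.89, adjusted p 0.0111, where the sex result of Isg15 over its 33 settings had 0.00207 to 0.998), and limma gave 3 and 4 members at an unadjusted p below 0.05 in WT and in the samples labelled Ahrr-/-. The members' median difference in these fits was -0.07, 0.12 and -0.19.

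Among the pathway lists, Ifnar1 (-0.55, adjusted p 0.0345) and Il10rb (-0.48, adjusted p 0.0361) were lower in males. Ifnar2 (-0.36), Ifngr1 (-0.42), Ifngr2 (0.001) and Ifnlr1 (0.37) did not pass. Trim25 (-0.93) also passed as lower in males, as did 5 of 61 further interferon-stimulated genes, where 2.46% of all genes did. Of these 5, Cd274 (-1.13), Oas3 (-0.81), Sp140 (-0.68) and Helz2 (-0.58) had the largest differences. In the macrophage and dendritic cell list, H2-Aa (1.48) and H2-Ab1 (1.34) alone passed, as higher in males, where 0.602% of all genes did. Csf1r (-0.20) was lower in males and the other tested genes of this list were higher, without passing. Ltf (-0.84), of 6 tested neutrophil markers, and Kit (-0.94), the only tested mast cell and basophil marker, passed as lower. The part of these markers in the members' results was not tested.

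Whether genotype differences depended on sex was tested by an interaction term. With WT and Ahr-/-, limma called 0 of 11346 genes (0%), with 533 genes and 2 members (Irf9 and Zbp1) at an unadjusted p below 0.05. With WT and the samples labelled Ahrr-/-, it called 0 of 11546 genes (0%), with 544 genes and 2 members (Stat2 and Adar) at that level. Limma voom called 0 genes in both, with 2 members and 1 member at that level.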

How the data were processed

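The deposited table held variance-stabilized log2 values of 22708 genes, which the authors made from read counts of unstranded NuGEN Ovation libraries. The submitters' processing notes name STAR 2.5.2, RSEM 1.3.0, DESeq2, R 4.0.3 and GRCm38. Inverting the values gave whole counts for 100.0% of them (tolerance 0.0001) and the size factors behind normalized counts. Lengths and overlaps came from the reference annotation, promoters from RefSeq. Genes with a mean at least 1 above the lowest value were tested across all genes with limma 3.58.1 (R 4.3.3, mean-variance trend), with Benjamini-Hochberg adjustment, on the groups compared. The code was tested on simulated data, where most genes changed by a log2 difference of 0.5 were not called. Python 3.11.15 drew the figures.

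Members and lists were chosen with earlier results of these data known. Values per sample are given for members that passed, the 3 with the highest mean normalized count in WT, the 3 with the largest SD within genotypes and those whose call changed between settings. From other lists at most 4 passing genes per comparison are named, and the targeted genes, Tiparp and the receptors always. The receptor kinases were chosen for naming after their values were seen.

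Alternatives were other minimum means, scalings, trends, weights and designs, voom, and leaving out each sample. Those added after seeing the data left out the libraries that stood apart or fitted single genotypes for sex.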

Additional observations from a re-analysis of the deposited data

Results flagged for a closer look

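For each of the 40 members in each of the 3 genotypes, the sample farthest from its group was compared with the group's range. In 2 of 120 groups a single sample stood far from the other 5, where chance gives about 1 in 20 groups. Ddx58 had a deposited value of 9.77 in Ahr-/- F3, with the other Ahr-/- samples between 10.07 and 10.18. Adar had a deposited value of 7.80 in Ahr-/- M1, with the other Ahr-/- samples between 7.96 and 8.05.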

How the results depend on the processing

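No named member that passed changed direction under the settings run. Over counts and genotype medians, 320 values stayed within 1.5 times or 1 SD between samples and 76 moved. Over named members, the sex median, sample deviations and promoter letters, 596 kept call or size, 67 lost a call, 18 gained one and 1 moved. The medians of Ahr-/- minus labelled Ahrr-/- (-0.04 to 0.09) and male minus female (-0.08 to 0.003) changed sign on leaving out single samples, within 1 SD. Between Ahr-/- and WT, 1003 genes passed, and 623 without a minimum mean, 553 with all 18 samples in 1 fit, 586 without both F3 libraries and 623 to 1124 on leaving out single samples (lowest without Ahr-/- F1). Members numbered 4, and 4 to 5 on leaving out single samples, but 2 at a minimum mean of 3, below which Usp18 and Oasl1 lie.

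Between the samples labelled Ahrr-/- and WT, 9 genes passed, and 4 without a minimum, 5 at a minimum of 3, 4 when centred, 5 after quantile normalization, 18 with sample weights, 4 on log2 of the normalized count plus 1, 4 by voom, 14 with all 18 samples, and 4 to 25 on leaving out single samples (highest without F1 labelled Ahrr-/-). The members' median was 0.02991 without the libraries with many epithelial counts.

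Between Ahr-/- and the samples labelled Ahrr-/-, 1708 genes passed, and 713 without a minimum, 828 at a minimum of 3, 994 without sex in the model, 626 without the libraries with many epithelial counts, and 818 to 2574 on leaving out single samples (lowest without Ahr-/- M3, highest without F1 labelled Ahrr-/-). Members numbered 6, but 3 without a minimum, 3 at a minimum of 3 and 3 to 8 on leaving out single samples. Zbp1, Trim30a and Gbp7 were lost together without Ahr-/- F1, M1, M2 or M3, or without F3, M1 or M3 labelled Ahrr-/-.

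Between the sexes 351 genes passed, and 163 without a minimum, 1310 with sample weights, 1049 without the libraries with many epithelial counts, 5 in WT alone, 5 in the samples labelled Ahrr-/- alone, and 142 to 733 on leaving out single samples (lowest without Ahr-/- M1, highest without WT F1). Members numbered 3, but limma gave 0 without a minimum (8 at an unadjusted p below 0.05), 0 at a minimum of 3 (1 at that level), 0 in WT alone (3), 1 in Ahr-/- alone, 0 in the samples labelled Ahrr-/- alone (4), and 0 to 4 on leaving out single samples. The interactions of sex with genotype gave 6 genes (Ahr-/-) and 5 genes (labelled Ahrr-/-) with all 18 samples in 1 fit. The causes were not tested.

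With the replicate number as a replicate block, 4 genes passed between the samples labelled Ahrr-/- and WT. Other counts of genes and members that passed between genotypes moved by less than 1.5 times. In the interaction of sex with the label Ahrr-/-, this block left 0 members at an unadjusted p below 0.05, in place of Stat2 and Adar. The comparison of the sexes was not fitted with this block. Same-numbered samples share only a number: their correlations ran from -0.585 to 0.476, and not every sample correlated best with its own number.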
